A study of Mus musculus with 15 samples.

Results

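The beta-globin 3′ boundary and flank are the stretch of mouse chromosome 7 on the 3′ side of the adult beta-globin genes. They were taken as all DpnII restriction fragments in the beta-globin viewpoint tables whose midpoints lie in chr7:110800130-110949999 (mm9). This gave 329 of the 637418 fragments listed in the 2 tables. The boundary, chr7:110929928-110949999, held 48 fragments and lay 11.3 to 31.2 kb from the nearest captured promoter fragment. The flank, chr7:110800130-110929927, held 281 fragments. Inside the flank, chr7:110850132-110870168 was followed separately as the core cluster, with 48 fragments that lay 91646 to 110670 bases away. The 128 flank fragments nearer than the core are called the near flank, and the 105 beyond it the far flank.

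Contact was measured by NG Capture-C, in which crosslinked chromatin is cut, ligated and enriched with oligonucleotides for chosen promoter fragments, so that a read count on a distant fragment reports how often that fragment was ligated to the promoter. The 15 libraries came from 14 erythroid cultures and 1 culture of embryonic stem (ES) cells. The erythroid cultures were grown from fetal livers of E12.5 embryos of strain F1 C57Bl6 / CBA. Precursors were grown for 5 to 7 days, mature red cells carrying Ter119 were taken out, and the remainder matured for 18 hours before fixation. Control cultures carried no deletion, and the others lacked alpha-globin regulatory elements: R1 and R2 together (R1R2_KO) or R2 and R3 together (R2R3_KO), with 3 biological replicates in each of these groups, or R1, R2, R3, Rm or R4 alone, with 1 library each. The labels do not say whether deletions were on both alleles or whether embryos were pooled. The sample numbers in the column names run on from R1R2_KO to control, whereas R2R3_KO repeats those of R1R2_KO. What these numbers stand for is not stated. In every R2R3_KO contrast a difference between number series cannot be told apart from the deletion. The ES library was from the E14 line, strain 129/Ola, with no deletion named. The deleted elements belong to the alpha-globin locus on another chromosome, so the beta-globin locus was not the one edited in any group. Cell identity could not be checked with expression markers in these tables. Contact with the beta-globin locus control region, an erythroid enhancer cluster, was 18327 to 28142 reads per 100000 in the 14 erythroid libraries and 5303 in ES.

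The adult beta-globin genes are switched on in maturing red cells, where their promoters contact the locus control region upstream. The cluster sits among olfactory receptor genes, which are silent in red cells. Sites bound by the architectural protein CTCF lie on both sides of the cluster and are known to contact each other in erythroid cells; the downstream one is the hypersensitive site called 3′HS1. Only the first 14 annotated genes after Hbb-bt on this side were listed, in the RefSeq gene order. All 14 are olfactory receptor genes or pseudogenes, beginning with Olfr67, Olfr68 and Olfr69. Their positions in mm9 were not used here, so no fragment is assigned to a gene.

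The promoters of the adult genes are shown in their reference sequence, because every value below is a contact with the adult promoters. Whether the strains of these libraries carry the same sequence was not checked. The beta-globin tables lack fragments at chr7:110961283-110963273 and chr7:110975292-110977138, called the viewpoint gaps. The starts of these gaps are 14009 bases apart, and RefSeq (GRCm38.p6) places the starts of Hbb-bs and Hbb-bt 14005 bases apart. The 250 bases before each start, written 5′ to 3′ on the gene's minus strand with GATC, the DpnII site, in capitals, are Hbb-bt at chr7:103813924-103814173 and Hbb-bs at chr7:103827929-103828178 (GRCm38.p6):
Hbb-bt promoter: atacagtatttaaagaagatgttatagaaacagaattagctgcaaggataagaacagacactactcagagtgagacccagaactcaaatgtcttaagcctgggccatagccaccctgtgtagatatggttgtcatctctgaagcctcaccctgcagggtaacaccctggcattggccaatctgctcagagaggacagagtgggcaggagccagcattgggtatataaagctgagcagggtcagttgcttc
Hbb-bs promoter: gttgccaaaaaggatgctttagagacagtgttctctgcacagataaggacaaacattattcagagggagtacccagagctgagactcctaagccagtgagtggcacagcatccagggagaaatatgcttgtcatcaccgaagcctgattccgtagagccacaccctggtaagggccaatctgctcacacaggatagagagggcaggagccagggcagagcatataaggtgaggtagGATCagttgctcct
The sequences were identical at 178 of 243 aligned bases (73.3%). GATC occurred once in the Hbb-bs window, beginning 14 bases before the start, and not in that of Hbb-bt; 41.9% of 32851 RefSeq promoter windows of this length held it on either strand, which are the same for this motif.

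The 9 replicated libraries held 45301 to 99096 reads, the single knockouts 243961 to 470262 and ES 286120. Among the 9, every control library was deeper (95471 to 99096) than every double-knockout library (45301 to 68570). Values are reads per 100000 chr7 reads lying more than 2 kb from the viewpoint gaps. Of these there were 24855 to 60396 in the replicated libraries, 141498 to 222678 in the single knockouts and 230343 in ES. That chr7 share was 52.4% to 63.3% of all reads in the replicated libraries, 47.2% to 58.0% in the single knockouts and 80.5% in ES. At this depth the boundary received 584 to 1808 reads per replicated library, the flank 710 to 2141 and the core cluster 60 to 456. Of the 329 fragments, 61 reached 90 reads over the 9 libraries, the limit for a test; 37 were in the boundary and 24 in the flank, and 5 fragments had no read there. R1R2_KO replicate 1 stood apart in the wider window. Over fragments with enough reads within 500 kb its counts differed from those of replicates 2 and 3 by a chi-square per degree of freedom of 6.99 and 6.38. The other 7 replicate pairs gave 1.61 to 2.75 there. Over the 3′ members alone its values were 2.84 and 2.40, and the other 7 pairs gave 1.19 to 2.77. It thus did not stand apart there in how reads were spread over fragments. This measure does not see a difference in total level. In total level over the members R1R2_KO replicate 1 was the lowest of the 15 libraries, at 3880 reads per 100000, and R2_KO was next at 4833. In the core cluster R1R2_KO replicate 1 and R1_KO were below the other erythroid libraries. The main results that rest on either library are also given without it.

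Contact decayed with distance but not evenly. Per kilobase covered, control libraries had 136, 160 and 153 reads per 100000 in the boundary. The near flank had 31.8, 31.3 and 38.4, the core cluster 31.2, 33.5 and 37.8, and the far flank 8.45, 8.11 and 10.4. The core cluster was thus level with the near flank in control although it lies farther away, and the far flank was below both in each control library. The highest 5-kb bin of the boundary, chr7:110940161-110944625, had 1259 ± 167 reads per 100000 (SD, n = 3) in control, against 675 ± 76.4 (SD, n = 3) in the bin next to it on the promoter side. Contact therefore had a local maximum about 18.8 kb from the promoters, inside the boundary.

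**Figure D1:**
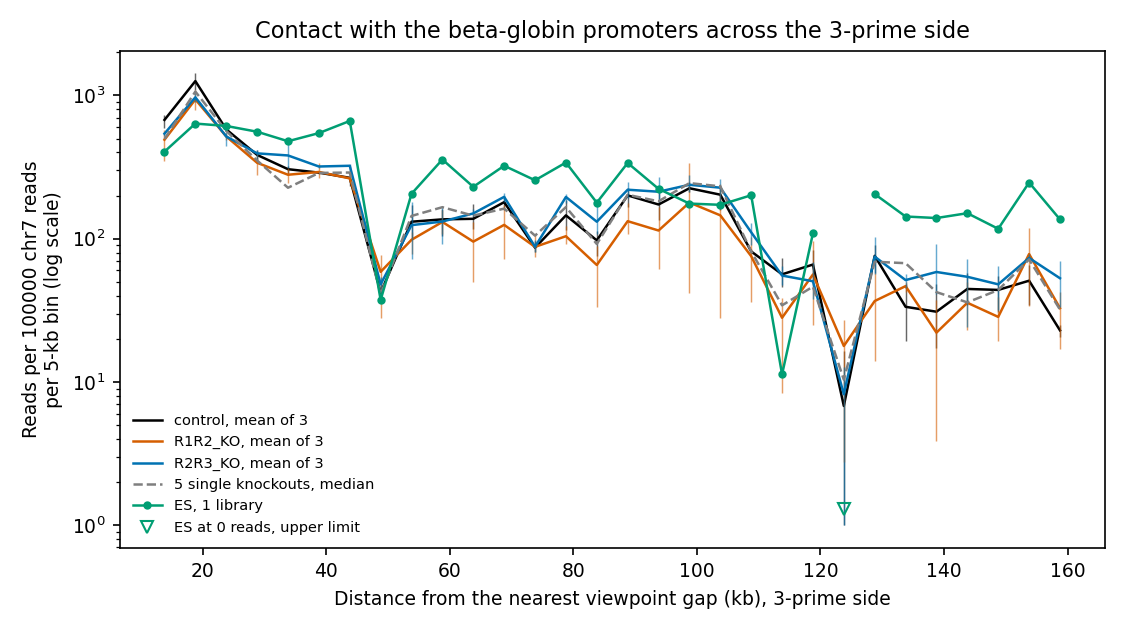
Reads per 100000 chr7 reads in 5-kb bins (log scale) against distance from the nearest viewpoint gap in kb; lines are group means, the single-knockout median or the ES library, vertical bars span the lowest to the highest of 3 replicates, and a bar reaching 1 marks a replicate at 0 reads. The erythroid lines peak at 18.8 kb and drop beyond the core cluster near 108 kb, whereas ES lies above them at most distances past 28.8 kb; the open triangle is the upper limit for a bin with 0 ES reads.

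The 10 highest of the 48 boundary fragments held 45.9% of its level averaged over the 9 libraries, and 7 of them lay in the bin at chr7:110940161-110944625. The 10 highest of the 281 flank fragments held 15% of the flank, with 2 in the core cluster. The highest was chr7:110940626-110941595 (970 bases), with 165, 254 and 200 in control, 136, 138 and 167 in R1R2_KO and 180, 156 and 145 in R2R3_KO. Next came chr7:110941709-110943025 (1317 bases), with 196, 269 and 260 in control, 106, 188 and 98.6 in R1R2_KO, and 129, 111.4 and 137 in R2R3_KO. At this second fragment every double-knockout replicate was below every control replicate, as was so at 14.2% (R1R2_KO) and 26.7% (R2R3_KO) of all 330 fragments tested. Its values in the single knockouts, 132 in R1_KO and 195 to 223 in the others, reached into the control range. The third, chr7:110943052-110944115, had 173 ± 13.7 in control, 162 ± 38.9 in R1R2_KO and 140 ± 30.4 in R2R3_KO (SD, n = 3), and these groups overlapped. The highest flank fragment was chr7:110926854-110928203, at 69.6 ± 20.1 in control, 72.2 ± 25.3 in R1R2_KO and 84.9 ± 54.9 in R2R3_KO (SD, n = 3).

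Local peaks were fragments at 3 or more times the median of the other fragments within 10 kb, averaged over the 9 libraries. Only the 61 fragments with 90 or more reads over these libraries were eligible. The far flank held 0 of them, so no peak could be found there. There were 5 peaks. In the boundary these were chr7:110940626-110941595 at 3.71 times the local median, chr7:110937500-110939145 at 3.19 and chr7:110941709-110943025 at 3.12. In the core cluster they were the adjoining fragments chr7:110861263-110861840 at 3.85 and chr7:110860497-110861262 at 3.52. The nearest fragment below the limit, chr7:110859982-110860496 at 2.97, adjoins the core pair, so the core maximum spans neighbouring fragments. Longer fragments tended to collect more reads: length and level had a Spearman correlation of 0.35 over the 329 fragments of the same libraries. Counted per kilobase of fragment, 7 fragments passed the limit and none of them was among these 5. The peaks are therefore peaks in reads per fragment only.

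The core peaks differed widely between libraries. The fragment chr7:110861263-110861840 had 42.3, 49.8 and 44.7 in control, 8.34, 69.2 and 34.0 in R1R2_KO, and 78.9, 45.1 and 20.1 in R2R3_KO. The single-knockout libraries ranged from 24.0 in R1_KO, the lowest, to 58.6, with a median of 36.8. The ES library had 36.9, inside that range. Groups overlapped throughout at this fragment.

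The outer edge of contact was sought as the largest fall in reads from the 10 kb nearer the promoters to the 10 kb beyond. In 10 of 14 erythroid libraries it lay 107 to 112 kb from the promoters, at the outer side of the core cluster, and in the other 4 and in ES it lay 46.3 kb away. The near position adjoins a bin of only 4 fragments, chr7:110909821-110914538, that was below both neighbouring bins in every library, with 42.0 ± 6.89 in control (SD, n = 3) and 37.3 in ES. Control replicates gave 46.3, 108 and 107 kb, so their mean of 87.3 ± 35.5 kb (SD, n = 3) falls between the positions and describes neither. With 20-kb windows, 13 of the 15 libraries gave the outer position. With 5-kb windows none did: 7 libraries gave 46.3 to 47.3 kb and the other 8 gave 113 to 136 kb. Most of those 8 positions adjoin the sparse bin chr7:110834278-110839597. In control it had 6.80 ± 8.66 (SD, n = 3), against means of 75.9 and 66.0 in the bins on either side. Among positions beyond the near one, every library had its largest fall between 107 and 116 kb, by 3.44-fold to 5.32-fold, and by 4.32-fold in ES. The position of the edge thus depended on the window, and with 10-kb windows it did not lie where the boundary meets the flank. In ES the outer fall led into the bin chr7:110845466-110850131, at 11.3, and contact farther out returned to 205 at chr7:110830156-110834277 and 247 at chr7:110805015-110810015, against 172 to 223 in the 4 core bins.

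The 3′ side was then compared with fragments at the same distances on the 5′ side, which carries the embryonic genes and the locus control region. In control, the flank had 3132 ± 357 reads per 100000 and the matched 5′ stretch, chr7:111008142-111138139, had 26386 ± 1658 (SD, n = 3), 8.42 times as much as a ratio of means. The flank was lower in 9 of 9 replicated libraries, with a mean log2 ratio of -2.98 (exact two-sided sign-flip permutation test, n = 9, p = 0.0039, the smallest this design allows, and 0.0039 adjusted over the 4 stretches compared). The matched stretch includes part of the locus control region. At 50 to 150 kb, beyond the locus control region, the 5′ side had 3.72 times the 3′ level in control, again as a ratio of means, and the mean log2 ratio of 3′ over 5′ was -1.98 over the 9 libraries, negative in 9 of 9. The boundary stood at -1.93 against its match, chr7:110988558-111008141, also negative in 9 of 9. That match lies wholly within the embryonic genes and the locus control region. The core cluster was closest to its match, at -0.97, or -0.70 without R1R2_KO replicate 1, ranging from -3.18 in R1R2_KO replicate 1 to -0.20 in R1R2_KO replicate 2. In ES the flank was 1.81-fold below its 5′ match.

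The deletions of alpha-globin elements were compared at the boundary. It had 2638, 3102 and 2952 reads per 100000 in control, 1905, 2564 and 2383 in R1R2_KO, and 2486, 2429 and 2350 in R2R3_KO. On this scale all 6 double-knockout libraries were below all 3 controls. R2R3_KO was also below control without overlap at the embryonic genes (up to 6434 against at least 7612) and the locus control region (up to 20715 against at least 23666). The edgeR quasi-likelihood test over 6 regions and 3 contrasts gave log2 -0.34 (SE 0.20, adjusted p = 0.256) for R1R2_KO against control, where 0.00% of the regions were called, and -0.26 (SE 0.19, adjusted p = 0.326) for R2R3_KO against control, where 33.3% were called, none on the 3′ side. The exact permutation test on the scaled values gave p = 0.1 for each, which is the smallest that 3 against 3 allows. With DESeq2 the boundary passed for R1R2_KO against control, at log2 -0.16 (adjusted p = 0.0409). The R2R3_KO difference from control depended on the scale. It was log2 -0.011 when scaled to reads within 500 kb, -0.0092 with TMM factors, -0.029 with DESeq2 and -0.42 when scaled to the whole table. R1R2_KO and R2R3_KO overlapped at the boundary, with log2 0.09 (SE 0.20, edgeR adjusted p = 0.738).

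The flank had 2927, 2925 and 3545 reads per 100000 in control, 1975, 3218 and 2696 in R1R2_KO, and 3761, 3693 and 3416 in R2R3_KO. All R2R3_KO libraries were above all R1R2_KO libraries, while control overlapped both. The flank was higher in R2R3_KO than in R1R2_KO by log2 0.47 (SE 0.15, edgeR quasi-likelihood test, adjusted p = 0.0152), and was the only stretch on the 3′ side to pass in any contrast; 50.0% of the 6 regions passed in that one, the embryonic genes and the locus control region being lower. The call was lost without R1R2_KO replicate 1 (log2 0.30, edgeR adjusted p = 0.0505), without R1R2_KO replicate 3 (0.48, 0.0729), and without R2R3_KO replicate 1 (0.44, 0.0925), 2 (0.45, 0.112) or 3 (0.51, 0.0692), and when scaled to the whole table (0.39, 0.295). Against control, edgeR gave log2 -0.25 (SE 0.15, adjusted p = 0.259) for R1R2_KO and 0.21 (SE 0.15, adjusted p = 0.326) for R2R3_KO. The R2R3_KO difference from control passed when scaled to reads within 500 kb (log2 0.46, adjusted p = 0.0127), with TMM factors (0.46, 0.0176) and with DESeq2 (0.44, 0.00778). The median of all 126 bins in that contrast moved as well, from log2 0.205 to 0.455 on the local scale, 0.455 with TMM factors and 0.439 with DESeq2.

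**Figure D2:**
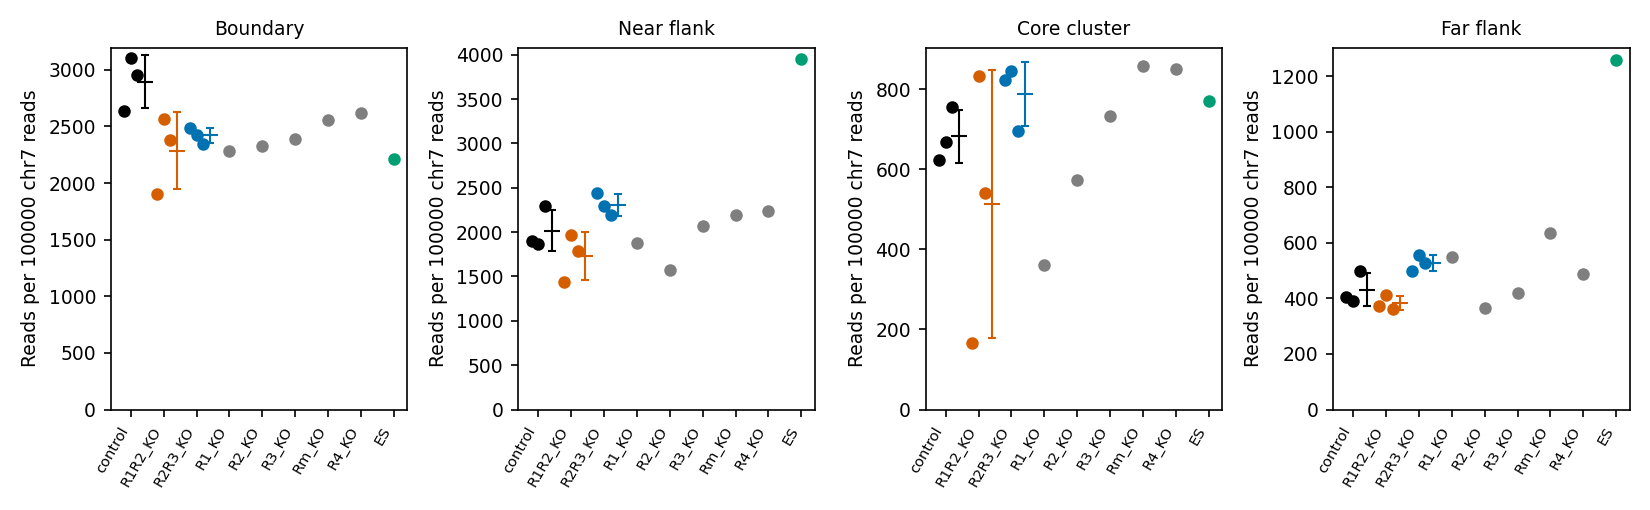
Reads per 100000 chr7 reads in each library (points) for the boundary, near flank, core cluster and far flank, with mean and SD beside groups of 3. ES stands above every erythroid library in the near flank (3953) and far flank (1258). In the boundary ES (2211) is above only R1R2_KO replicate 1 (1905) among them. R1R2_KO replicate 1 (167) and R1_KO (362) are lowest in the core cluster.

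The core cluster had 623, 669 and 755 reads per 100000 in control, 167, 834 and 541 in R1R2_KO, and 824, 846 and 696 in R2R3_KO. R1R2_KO replicate 1 was the lowest of all 15 libraries, from 60 reads (Wilson 95% interval 130 to 215 per 100000, counting error only), and R1R2_KO replicate 2 was among the highest. The single knockouts had 362 in R1_KO, 574 in R2_KO, 735 in R3_KO, 858 in Rm_KO and 851 in R4_KO. R1R2_KO against control gave log2 -0.42 (SE 0.54, edgeR adjusted p = 0.61), and this was 0.00 without R1R2_KO replicate 1. R2R3_KO differed from control by 0.21 (SE 0.53, edgeR adjusted p = 0.738) and from R1R2_KO by 0.63 (SE 0.54, edgeR adjusted p = 0.382); without R1R2_KO replicate 1 the latter was 0.21. No group difference in the core cluster passed the test, and the control libraries overlapped both double knockouts.

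Below the level of regions, no member passed the edgeR test. Of 29 member bins of 5 kb tested, 0 were called for R1R2_KO against control (0.00% of all 126 bins), 0 for R2R3_KO against control (6.35%) and 0 for R2R3_KO against R1R2_KO (1.59%); at unadjusted p under 0.05 there were 5, 2 and 8. DESeq2 called 0, 0 and 3, against 0.00%, 7.94% and 7.94% of all bins. In the third contrast 2 member bins were called on the local scale and 1 with TMM factors (4.76% of all bins each), and 1 without R1R2_KO replicate 1 (11.9%). Of 61 member fragments, 0 were called in the same contrasts (0.00%, 1.21% and 2.12% of 330 fragments), with 4, 3 and 3 at unadjusted p under 0.05, and DESeq2 also called 0 in each (0.303%, 0.303% and 0.909% of all fragments). The 8 bins for R2R3_KO against R1R2_KO were all higher in R2R3_KO and all lay in the flank, led by chr7:110880272-110884989 at log2 0.91 (SE 0.27, edgeR adjusted p = 0.0765). For R1R2_KO against control, 4 of 29 member bins were lower without overlap of the groups, against 11.1% of all 126 bins, and 0 were higher, against 3.17%. For R2R3_KO against control, 4 were higher, against 12.7%, and 3 lower, against 13.5%. For R2R3_KO against R1R2_KO, 10 of 29 member bins were higher without overlap of the groups, or 34.5%, against 18.3% of all 126 bins, and 0 were lower, against 6.35%. Without R1R2_KO replicate 1 these were 11 higher, against 28.6%, and 1 lower, against 11.1%. The median member bin stood at log2 0.45 and the median of all bins at 0.30.

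At the boundary's highest bin, chr7:110940161-110944625, R1R2_KO had 938 ± 151 and R2R3_KO 970 ± 70.7 against 1259 ± 167 in control (SD, n = 3). These are log2 -0.43 (SE 0.15, edgeR adjusted p = 0.377) and -0.38 (SE 0.15, edgeR adjusted p = 0.181). Its fragment chr7:110941709-110943025 gave -0.90 (SE 0.29, edgeR adjusted p = 0.357) and -0.94 (SE 0.29, edgeR adjusted p = 0.14). Without R1R2_KO replicate 1, which leaves the R2R3_KO and control values as they are and changes the shared estimate of spread, this fragment, the bin and the fragment chr7:110948623-110948843 passed for R2R3_KO against control, all lower; under that setting 16.1% of all bins and 20.2% of all fragments passed. Both double knockouts share the control libraries, so the 2 differences are not independent of each other.

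The ratio of boundary to flank reads does not depend on how libraries are scaled. It was 0.90, 1.06 and 0.83 in control, 0.96, 0.80 and 0.88 in R1R2_KO, and 0.66, 0.66 and 0.69 in R2R3_KO. R2R3_KO lay below both other groups without overlap, by log2 -0.47 against control and -0.39 against R1R2_KO (exact two-sided permutation test, n = 3 against 3, p = 0.1 for each, the smallest possible, and 0.15 adjusted over 3 contrasts); without R1R2_KO replicate 1 the latter was -0.33. The single knockouts had 0.82 in R1_KO, 0.93 in R2_KO, 0.74 in R3_KO, 0.69 in Rm_KO and 0.73 in R4_KO, and ES had 0.37, the lowest of the 15. Per kilobase, the core cluster over the near flank was 0.98, 1.07 and 0.98 in control and 0.95 to 1.10 in R2R3_KO. It was 0.35 in R1R2_KO replicate 1, 0.58 in R1_KO and 0.58 in ES, and at least 0.90 in the other 12 libraries.

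**Figure D3:**
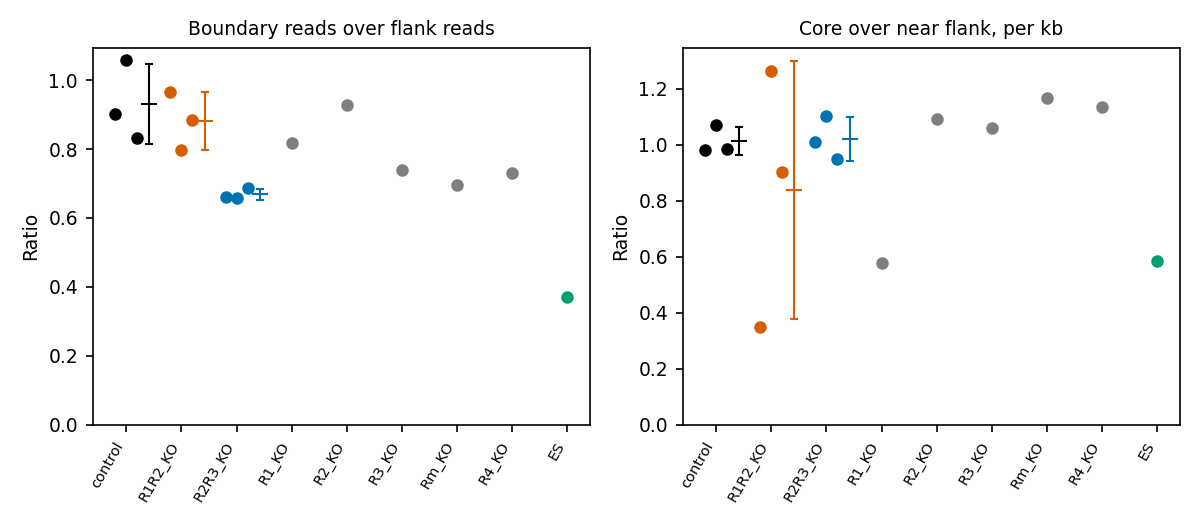
Ratio of boundary to flank reads (left) and of core cluster to near flank reads per kilobase (right) in each library (points), with mean and SD beside groups of 3. The R2R3_KO points (0.66 to 0.69) lie below those of control and R1R2_KO on the left; R1R2_KO replicate 1, R1_KO and ES lie apart from the rest on the right.

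ES was compared with the 5 single-knockout libraries, which stand in the same table; with 1 ES library there is no test, and cell type, strain and culture cannot be told apart. The near flank had 3953 reads per 100000 in ES (Wilson 95% interval 3874 to 4033, counting error only), against 1568 to 2243 in the single knockouts. The far flank had 1258 (1213 to 1304) against 366 to 635, which is 2.58 times their median of 487. The flank as a whole had 5983 (5887 to 6080) against 2508 to 3687, 1.85 times their median. The boundary had 2211 (2152 to 2272) in ES against 2286 to 2621, just below all 5, and the core cluster 772 (737 to 808) against 362 to 858, inside their range. ES thus had more contact than the single knockouts in the flank on either side of the core cluster, and a value just below or inside their range in the boundary and the core. The log2 ratios were -0.11 for the boundary, 0.89 for the flank and 0.07 for the core. Without R1_KO they were -0.16, 0.81 and -0.04, so the core's direction turns with that library. Scaled to all reads of the table, they were 0.53, 1.61 and 0.79, so the boundary's direction turns with the scale.

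Most of the window around the promoters was also higher in ES on this scale. Of 30 member bins with 90 or more reads, 14 were at least 2-fold higher in ES, against 69.3% of the 192 such bins within 500 kb, and 2 were at least 2-fold lower, against 7.29%. The lower bins include chr7:110834278-110839597, which reached 90 reads through the single knockouts only. ES was above all 5 single knockouts in 21 of 30 member bins (77.6% of all 192). The median log2 ratio was 0.98 over the member bins and 2.11 over the window. The highest ratios were at the outer end, with log2 2.09 at chr7:110800130-110805014 (136 in ES, 24.5 to 43.1 in the single knockouts) and 2.07 at chr7:110814798-110819968 (151 against 20.5 to 70.6). None of the 4 boundary bins reached 2-fold in either direction.

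The boundary maximum was lower in ES on the chr7 scale. The bin chr7:110940161-110944625 had 636 in ES and 918, 1070, 1051, 1064 and 1198 in R1_KO, R2_KO, R3_KO, Rm_KO and R4_KO, a log2 ratio of -0.74. Per 100000 reads of the whole table it had 512 in ES, inside the single-knockout range of 475 to 621, a log2 ratio of -0.02. In ES this bin was close to its outer neighbour, chr7:110935472-110940160, at 612. Of the 3 boundary peak fragments, chr7:110941709-110943025 had 71.6 in ES against 132 to 223 on the chr7 scale, and chr7:110940626-110941595 had 126 against 148 to 241, both below all 5 single knockouts. The third, chr7:110937500-110939145, had 190 in ES, inside the range of 84.9 to 204. The peaks were chosen as high in the replicated erythroid libraries, and the bin as highest in control, without ES. Lower values in ES are therefore favoured by that choice. The core bins chr7:110859982-110864939 and chr7:110854806-110859981 had ES ratios of log2 -0.47 and -0.43, but R1_KO lay below ES in both (91.9 against 176, and 81.6 against 172).

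**Figure D4:**
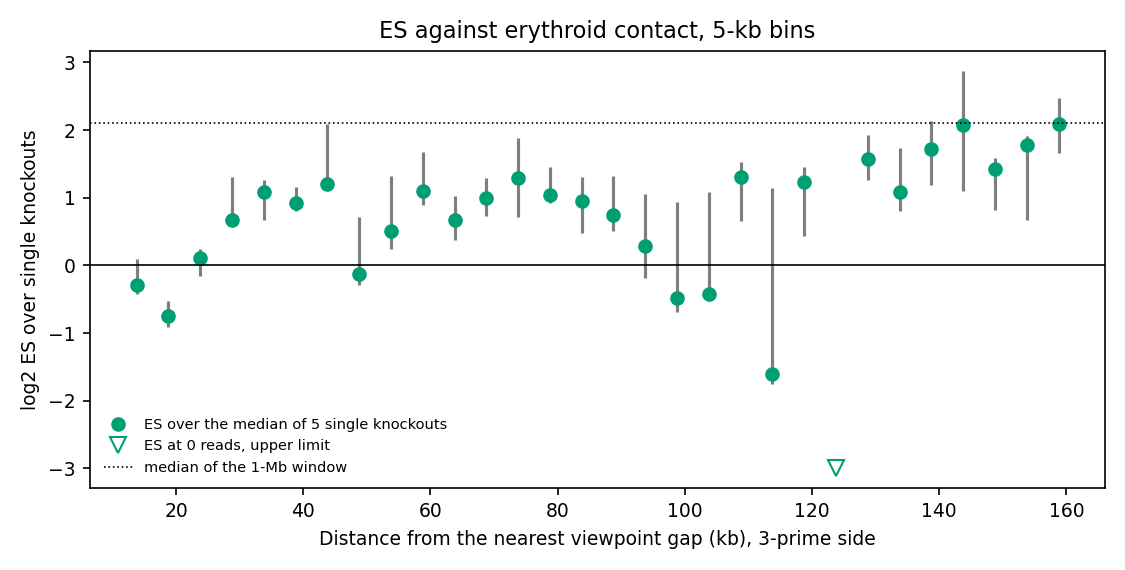
Log2 ratio of ES to the median of the 5 single knockouts in each 5-kb bin (points) against distance from the nearest viewpoint gap in kb; bars span the ratios to the highest and to the lowest single knockout, the dotted line is the median of the window (2.11) and the open triangle an upper limit from 0 ES reads. The ratio is lowest in a pair of outer bins, is also below 0 at the boundary maximum (-0.74) and in core bins (-0.47 and -0.43), and reaches 2.09 at the outer end.

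The 2 bins that were at least 2-fold lower in ES lay beyond the core cluster. The bin chr7:110834278-110839597 had 0 ES reads on its 10 fragments, which allows up to 1.30 reads per 100000, against a single-knockout median of 10.4, so it was at least 7.96-fold lower. R1_KO had 1.14 there, below the other single knockouts at 9.19 to 15.05. The bin chr7:110845466-110850131 had 11.3 in ES against a median of 34.3, and R1_KO had 5.14. In this second bin R1R2_KO replicate 1 had 8.34, against 38.4 and 37.4 in replicates 2 and 3. ES, R1_KO and R1R2_KO replicate 1 were thus low together in it.

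Single fragments with few ES reads were therefore counted, by a rule chosen after the counts were seen: under 10% of the single-knockout median where at least 10 ES reads would be awaited from it. There were 8 among 239 eligible members (3.35%; 4.18% of the 693 eligible fragments within 500 kb), 4 in the boundary, 4 in the flank and none in the core cluster. They held 6 ES reads in all, which is what chose them. R1R2_KO replicate 1, which the rule did not use, had 1 read on them, against 28 and 41 in replicates 2 and 3, 57 to 98 in control and 28 to 39 in R2R3_KO. R1_KO had 12 reads and the other single knockouts 131 to 204. By the same rule 12 members were poor in R1_KO, and 6 were poor in both it and ES, 75.0% of the ES list and 50.0% of the R1_KO list. Among the other fragments within 500 kb 16 were poor in both, 76.2% of their 21 ES-poor and 80.0% of their 20 R1_KO-poor fragments. ES is labelled 129/Ola, whereas R1_KO and R1R2_KO replicate 1 carry the same strain label as the other erythroid libraries; the part of strain in these values was not tested. Leaving the 8 fragments out moved the flank's log2 ratio of ES to the single knockouts from 0.89 to 0.91 and the flank difference between R2R3_KO and R1R2_KO from log2 0.465 to 0.466. They hold no core fragment, so the core values of R1R2_KO replicate 1 and R1_KO stay as given.

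**Figure D5:**
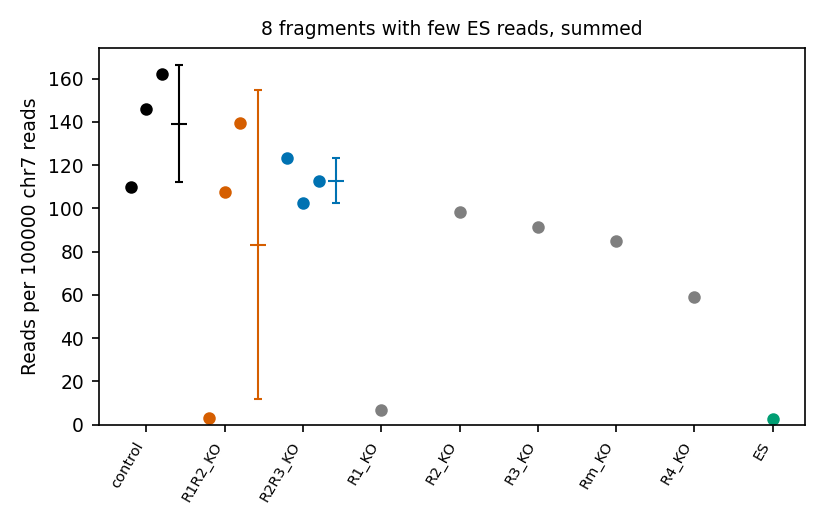
Summed reads per 100000 chr7 reads on the 8 fragments with few ES reads in each library (points), with mean and SD beside groups of 3. R1R2_KO replicate 1 (2.78), R1_KO (6.85) and ES (2.61) lie near 0 and the other 12 libraries between 59.1 and 162.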

How the data were processed

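NG Capture-C read counts per DpnII fragment for the adult beta-globin promoters were used as deposited by the authors in 2 tables; reads were trimmed with Trim Galore and aligned with Bowtie to mm9, per the submitters' processing notes, and the sources used here do not give the counting step. Of the first table, 7 further columns match no sample and were not used. Fragments were assigned to bins and regions by midpoint. Each count was divided by the library's chr7 reads more than 2 kb from the viewpoint gaps and multiplied by 100000. Log2 differences were computed here from the deposited counts with edgeR 4.0.16 in R 4.3.3 (glmQLFit, glmQLFTest), one fit over the 9 replicated libraries with that total as library size, a minimum of 90 reads for bins and fragments, and Benjamini-Hochberg adjustment over all features and, for the 6 regions, over the 3 contrasts, with 0.05 as threshold. DESeq2 1.42.0, TMM factors, other scalings, windows and limits and leaving out each library were alternatives. Tests on single values were exact permutations (scipy 1.17.1). Over fragments within 500 kb, replicate pairs all differed by more than sampling noise, with chi-square per degree of freedom from 1.61, so none was merged. PCR duplicates cannot be seen in these tables, so intervals and limits cover counting error only. Fragments named are the local peaks, the highest fragments of each stretch, features that passed a test under any setting, and the bins with the highest and lowest ES ratios; only some of the highest are spelled out. The members and lists were chosen with earlier results of these data known.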

Additional observations from a re-analysis of the deposited data

How the results depend on the processing

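Values that changed side of a threshold, direction or size included the following, and the causes were not tested. The boundary difference of R2R3_KO from control was log2 -0.26, but -0.011 on the local scale, -0.0092 with TMM factors and -0.029 with DESeq2. It was -0.42 on the whole-table scale. The flank difference of R1R2_KO from control was -0.10, -0.072 and -0.079 in the same order, and -0.34 on the whole-table scale. On that last scale the flank difference of R2R3_KO from control was 0.052. The flank difference between R2R3_KO and R1R2_KO was log2 0.39 on the whole-table scale and 0.30 to 0.64 without single libraries. The boundary difference of R1R2_KO from control passed with DESeq2 (-0.16; -0.44 to -0.23 without single libraries). The flank difference of R2R3_KO from control passed on the local scale and with TMM factors (0.46 each) and DESeq2 (0.44), and that of R1R2_KO passed without R1R2_KO replicate 2 (-0.43; range -0.43 to -0.085 without single libraries). Without R1R2_KO replicate 1 the boundary difference between R2R3_KO and R1R2_KO turned to -0.029 (range -0.029 to 0.18) and the core difference of R1R2_KO from control to 0.00098 (range -0.96 to 0.00098), none of them called. Called member bins for R2R3_KO against R1R2_KO numbered 2 on the local scale, 1 with TMM factors and 3 with DESeq2 (4.76%, 4.76% and 7.94% of all bins), and 0 to 1 without single libraries. For R2R3_KO against control there were 0 to 1 bins and 0 to 2 fragments without single libraries, the 1 and 2 being without R1R2_KO replicate 1, where 16.1% of all bins and 20.2% of all fragments were called. On the whole-table scale the ES log2 ratios were 0.53 for the boundary, 1.61 for the flank and 0.79 for the core; on the local scale the boundary was at -0.0054. The core ratio turned to -0.04 without R1_KO, and the ratio of boundary to flank in R1R2_KO against control turned from -0.08 to 0.02 without control replicate 2. With 5-kb windows 0 of 15 libraries had their edge at the outer position found with 10-kb windows. Local peaks numbered 16 at 2 times the local median and 0 at 5 times. The log2 ratio of the flank to the 5′ side in control was -1.90 at 50 to 150 kb only, a window chosen after seeing the data; leaving out the ES-poor fragments, leaving out R1_KO and the ratio of boundary to flank were also added then. Replicate numbers did not pair the libraries: 2 of 9 same-number pairs correlated above 0.1 (range -0.13 to 0.28), and 4 of 9 libraries correlated best with their own number. With the number as a replicate block the flank difference between R2R3_KO and R1R2_KO was 0.48 (edgeR adjusted p = 0.0377). The block changed no call of a 3′ stretch and left 0 called member bins and fragments. Outside the members calls did change: for R1R2_KO against control 3 of 126 bins were called, against 0 without the block. Depth limits single fragments most: 268 of 329 members were under 90 reads over the 9 libraries.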
